A study of Mus musculus with 52 samples.

Results

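The genes described here encode replacement histone variants, and they were chosen by name: H2afx, H2afz, H2afv, H2afj, and H2afy (H2A variants), H3f3a and H3f3b (histone H3.3), Cenpa (centromeric H3), and H1f0 (linker histone H1.0). All 9 were found, of 23043 genes kept from the deposited tables, and each has 1 transcript there. The data are ChIP-seq libraries of mono-, di-, and trimethylated H3 lysine 4 (H3K4me1, H3K4me2, and H3K4me3) from 3T3-immortalized mouse embryonic fibroblasts (MEFs) whose MLL2 alleles are both flanked by loxP sites. The F/F cells received no tamoxifen (0 h). FC/FC cells are the same cells after 24 h in 1 µM hydroxy-tamoxifen, which excises MLL2, and 6 further days of growth, so that the effects of drug and deletion cannot be told apart. Each genotype has 3 libraries of each mark, 18 altogether, and the other 34 samples of the series were not analysed here. The study describes the 3 libraries of a group as independent experiments, and the labels pair no libraries across genotypes.

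Most replacement variants are made throughout the cell cycle and take the place of the core histones that cells make in S phase. H2A.X is phosphorylated around DNA breaks, and the phosphorylated form is called γH2AX. H2A.Z, encoded by H2afz and H2afv, and H3.3, encoded by H3f3a and H3f3b as 1 protein, are placed at promoters and enhancers by dedicated chaperones. MacroH2A1, from H2afy, carries a large extra domain and is known from the inactive X chromosome. CENP-A marks the centromere, and H1.0 accumulates in cells that have stopped dividing. H3K4me3 marks active start sites, H3K4me1 marks their flanks and enhancers, and MLL2 (Kmt2d) is a methyltransferase best known for H3K4me1 at enhancers.

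The totals that scale RPKM ran from 26714377 to 49990775 reads per library. They equal the sum of reads counted over the transcripts, so they are not sequencing depth. The largest F/F total of H3K4me1 (30528079) was below the smallest FC/FC total (31253262). NGS-6282, an H3K4me2 library of FC/FC cells, carries in its label the antibody catalogue number of the H3K4me1 libraries. The H3K4me2 differences of the replacement variant genes tested are given with and without it. The H3K4me2 values of other named genes and of the gene lists include it. Of 14 fibroblast markers, 10 passed 1 RPKM of H3K4me3 in at least 3 libraries (Twist1 with 22.2 ± 1.67 RPKM in F/F cells), and of 16 markers of other cell types 1 did (Sox2, 11.0 ± 0.39 RPKM). Of both lists Cdh1 alone passed limma in any mark, lower in FC/FC cells for H3K4me2 (-0.49, adjusted p = 0.033). Without NGS-6294 limma called 0 genes in this mark. Limma-voom called 3 of 11 fibroblast markers and 2 of 5 markers of other cell types in H3K4me1, and 0 of 12 and 1 of 4 in H3K4me2. Over the whole Kmt2d transcript, the F/F libraries had 2.497 ± 0.045 RPKM of H3K4me2 and the FC/FC libraries 2.80 ± 0.10 RPKM, but these values cover the full gene and do not check the excision of a few exons.

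Promoter sequences from RefSeq (GRCm38.p6, the build called mm10 in the deposited files) were matched by gene ID for 8 of the 9 genes, all but H2afx. The windows of 5 genes are printed because each pair of genes that encodes the same or nearly the same histone has promoters of different make, and because Cenpa has the fewest CpG dinucleotides. Each window holds the 250 bases before the start site, 5′ to 3′ on the strand of the gene, with CCAAT or its reverse complement ATTGG in capitals. H3f3a lies at chr1:180813606-180813855, minus strand, H3f3b at chr11:116024505-116024754, minus strand, H2afz at chr3:137864237-137864486, plus strand, H2afv at chr11:6444444-6444693, minus strand, and Cenpa at chr5:30666636-30666885, plus strand.
H3f3a: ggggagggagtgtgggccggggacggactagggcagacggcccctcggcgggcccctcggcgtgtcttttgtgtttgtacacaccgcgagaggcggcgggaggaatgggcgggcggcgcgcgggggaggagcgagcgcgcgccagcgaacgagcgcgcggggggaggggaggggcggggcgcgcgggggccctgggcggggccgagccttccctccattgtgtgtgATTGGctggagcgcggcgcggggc
H3f3b: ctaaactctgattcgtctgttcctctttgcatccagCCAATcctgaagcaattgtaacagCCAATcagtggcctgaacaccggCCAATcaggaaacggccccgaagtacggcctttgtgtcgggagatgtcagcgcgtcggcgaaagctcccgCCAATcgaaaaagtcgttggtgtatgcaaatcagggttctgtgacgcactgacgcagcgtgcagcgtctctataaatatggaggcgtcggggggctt
H2afz: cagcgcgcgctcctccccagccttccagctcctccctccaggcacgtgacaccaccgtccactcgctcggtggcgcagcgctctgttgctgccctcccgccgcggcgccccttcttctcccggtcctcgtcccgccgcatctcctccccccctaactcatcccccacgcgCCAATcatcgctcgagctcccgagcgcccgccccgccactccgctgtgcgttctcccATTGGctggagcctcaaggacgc
H2afv: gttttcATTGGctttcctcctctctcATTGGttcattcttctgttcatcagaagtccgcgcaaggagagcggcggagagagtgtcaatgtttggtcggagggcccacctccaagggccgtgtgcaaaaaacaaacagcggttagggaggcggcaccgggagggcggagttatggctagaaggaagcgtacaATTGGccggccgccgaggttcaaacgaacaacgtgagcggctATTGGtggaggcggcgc
Cenpa: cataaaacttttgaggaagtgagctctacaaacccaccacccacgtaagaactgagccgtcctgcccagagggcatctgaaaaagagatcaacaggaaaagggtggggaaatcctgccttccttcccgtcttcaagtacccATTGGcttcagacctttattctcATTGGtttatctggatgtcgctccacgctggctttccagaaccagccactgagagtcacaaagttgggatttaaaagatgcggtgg

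CCAAT is the core of the element bound by the factor NF-Y. Counted on both strands over the full 300 bases of the table's windows, which add 50 bases from the start on, it occurred 4 times each in H3f3b and H2afv, 3 times each in H2afz and H2afj, 2 times in Cenpa, 1 time in H3f3a, and not at all in H2afy and H1f0. Of all 32851 promoters of this length, 37.4% held CCAAT at least 1 time, 3.37% at least 3 times, and 1.06% at least 4 times. In H3f3b the first bases of the matches stood at -214, -190, -167, and -97, counted from the start. The GC box, GGGCGG or its reverse complement, showed the reverse order for the H3.3 genes, with 6 matches in H3f3a and none in H3f3b (2.71% of promoters held at least 5). Of the 8 genes, H3f3b alone held TATAAA on either strand (13.6% of promoters) and the octamer ATGCAAAT (1.74%). H3f3a had 39 CpG dinucleotides and H3f3b 24, against 34 in H2afz, 27 in H2afv, 10 in Cenpa, and a median of 7 over all promoters. These matches are descriptions of letters, and binding was not measured here.

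All 9 genes carried H3K4me3 at their start sites, but the level over the gene differed widely among them. Levels are given in RPKM, reads scaled by length and by the library's total over transcripts. They cover the transcript extended by 500 bp on each side, so genes can be compared per length. For H3K4me3 the 6 libraries averaged 27.9 RPKM for H2afx, 26.1 for H2afj, 24.9 for H3f3b, and 20.6 for H1f0, and each of these overlapped its neighbour in the order. H2afz (16.5 RPKM), H3f3a (7.58), Cenpa (5.42), H2afv (2.25), and H2afy (0.648) followed, each below the one before it in every library. Within a library, H2afx, H2afj, H3f3b, and H1f0 stood above 98.2% to 99.4% of all genes. The low end of the order held the long transcripts. H3K4me3 peaks covered 4.56% of the counted interval of H2afy (61929 bp of transcript) and 12% of that of H2afv (17218 bp), on average over the libraries, against 100% for H2afj and H1f0.

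**Figure D1:**
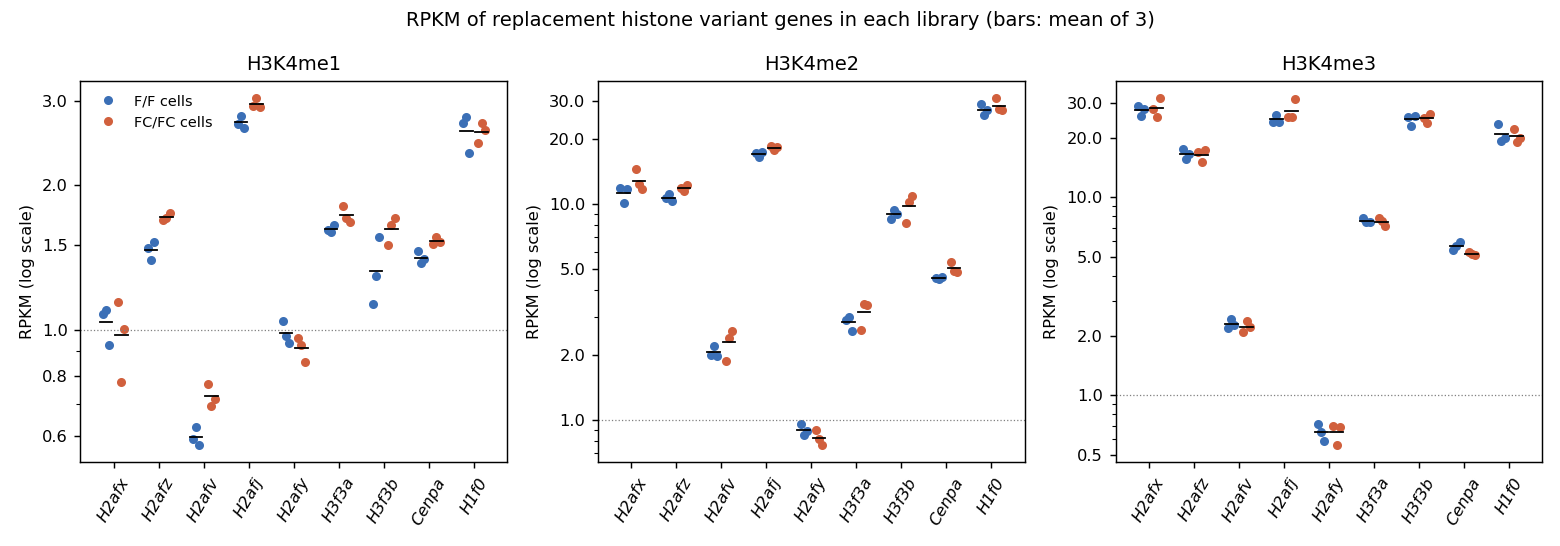
RPKM (log scale) of the 9 genes in each library, in a panel per mark, with F/F cells in blue, FC/FC cells in orange, and a bar at the mean of 3 libraries. The dotted line is at 1 RPKM, the level a gene had to pass in at least 3 libraries to be tested, and H2afy lies below it in H3K4me2 and H3K4me3.

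H3K4me2 followed another order. H1f0 led with a mean of 27.9 RPKM over 6 libraries, then H2afj (17.7), both apart from their neighbours. H2afx (12.02), H2afz (11.3), and H3f3b (9.35 RPKM) overlapped in turn, and Cenpa (4.79), H3f3a (2.99), H2afv (2.17), and H2afy (0.863) stood apart below them. The spread was smallest for H3K4me1, from 2.84 RPKM for H2afj and 2.59 for H1f0 to 0.661 for H2afv, with H3f3a (1.68), H2afz (1.59), H3f3b (1.47), Cenpa (1.47), H2afx (1.00), and H2afy (0.949) between them. In this mark H3f3a, H2afz, H3f3b, and Cenpa overlapped in turn, as did H2afx and H2afy. The counts behind the H3K4me1 values were low for the short genes, 59 to 92 reads per library for H2afx and 107 to 235 for H3f3b.

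Other genes lie close to some of the 9. The transcript of H1f0 lies at chr15:79028212-79030500. Its interval, extended by 500 bp, holds the start of Gcat, a threonine catabolism gene, 2662 bp downstream of the start of H1f0. Gcat had 1.77 ± 0.08 RPKM of H3K4me3 in F/F cells. Hist4h4, a core histone gene, starts 3817 bp upstream of H2afj and runs away from it, outside the interval. Dnajb14 starts 3188 bp downstream of the start of H2afz, also outside it. The part of these neighbours in the levels was not tested.

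An H3K4me3 peak covered the start of all 9 genes in all 6 libraries, where 50.1% of all genes had one. An H3K4me2 peak did so for 8 genes (54.2% of all genes), and for H2afv in 2 F/F and 3 FC/FC libraries. An H3K4me1 peak covered the start of none of the 9 genes in all 6 libraries (7.82% of all genes). The only H3K4me1 peaks over a start were at H2afj in 2 FC/FC libraries, where the upstream peak reached 23 and 77 bp past the start. In the third FC/FC library it ended at -48 bp, and in the F/F libraries at -122 to -23 bp. At most of the genes H3K4me1 peaks lay on both sides of the start and left a gap. H2afx had a downstream peak in all 6 libraries but an upstream one in only 1. Where peaks lay on both sides, the gap had a median of 462 bp at H1f0, 636 bp at Cenpa, 1056 bp at H2afj, 1085 bp at H2afv, 1219 bp at H2afy, 1567 bp at H2afz, 2784 bp at H3f3a, and 4653.5 bp at H3f3b, where it ran from 1832 to 5406 bp over 4 libraries.

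**Figure D2:**
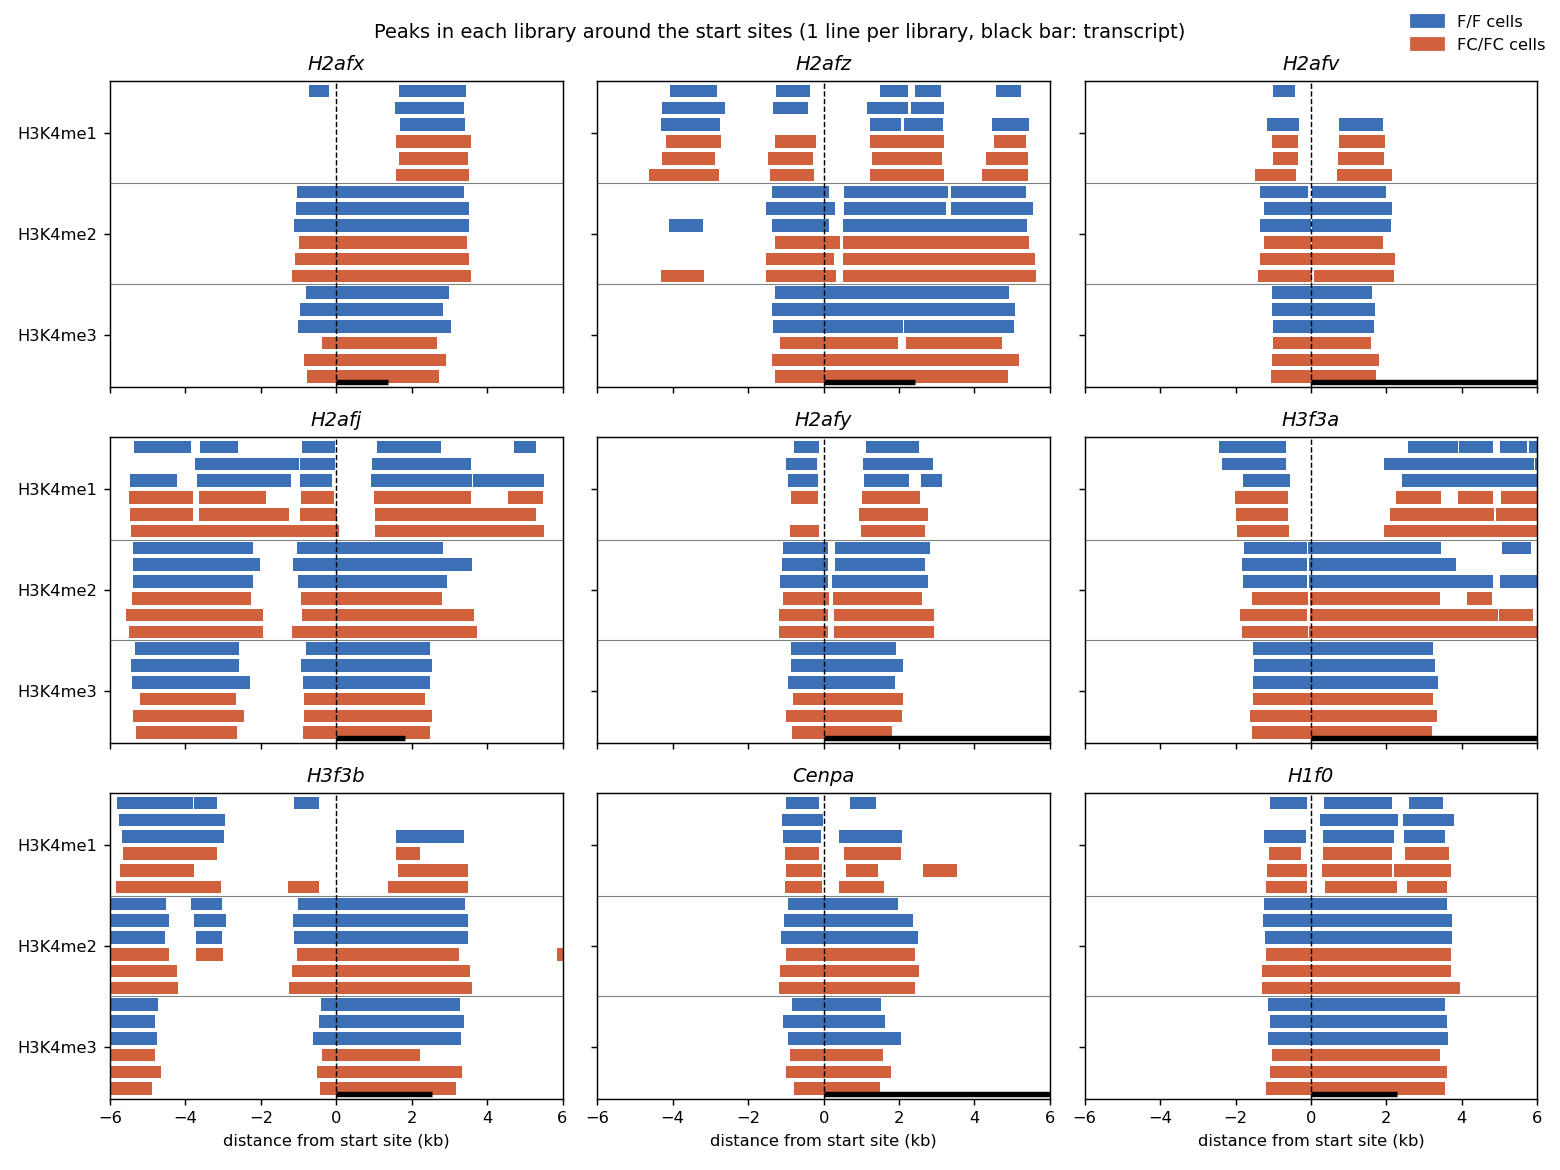
Peaks of each library within 6 kb of the start sites (x axis, kb, downstream to the right), 1 line per library, blue for F/F and orange for FC/FC cells, with the transcript as a black bar. H3K4me3 bars cross every start, and H3K4me1 bars stop on either side of it except at H2afj in 2 FC/FC libraries.

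The pair of H3.3 genes differed in this layout. At H3f3a (chr1:180802568-180813603, minus strand) H3K4me1 peaks lay upstream and downstream of the start in all 6 libraries. At H3f3b (chr11:116021961-116024504, minus strand), which is 2544 bp long, a downstream peak was found in 4 libraries, 1 F/F and 3 FC/FC. Upstream, all 6 libraries had an H3K4me1 peak between -5847 and -2955 bp, and 1 library of each genotype had a nearer one between -1291 and -454 bp. H3K4me2 peaks between -9336 and -4189 bp and H3K4me3 peaks between -7849 and -4657 bp, in all 6 libraries, cover the start of Unk, at -5812 bp. The farther H3K4me1 peak covers that start in NGS-6297 and begins at -5803 to -5659 bp, beside it, in the other libraries. In NGS-6293, NGS-6281, and NGS-6289 the gap at H3f3b was measured up to this farther peak. The H3K4me3 peak over the start was wider at H3f3a, with 4828 ± 61.2 bp in F/F cells against 3829 ± 117 bp at H3f3b. Over the 9 genes these means ran from 2681 bp at Cenpa to 5375 bp at H2afz, where the peak of some libraries runs on over Dnajb14. Most H3K4me2 and H3K4me3 peaks over a start have the same score, 3100, so scores do not rank them.

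Whether loss of MLL2 changed the marks at these genes was asked with limma on log2(RPKM + 0.1), fitted over all genes of a mark. None of the 9 genes passed at an adjusted p under 0.05 in any mark. For H3K4me1 limma tested 7 of the 9 and called 0 (0% of 8567 genes), and 3 had an unadjusted p under 0.05 (25% of genes). For H3K4me2 it tested 8 and called 0 (2.14% of 9986 genes), with 2 at an unadjusted p under 0.05 (29% of genes). For H3K4me3 it tested 8 and called 0 (0% of 9073 genes), with 1 at an unadjusted p under 0.05 (3.73% of genes). Limma-voom on the recovered reads also called 0 of the 9 in each mark, where it called 8.26%, 3.7%, and 0% of all genes. H2afy was not tested in any mark, nor H2afv in H3K4me1, since their RPKM did not pass 1 in 3 libraries.

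The differences, FC/FC minus F/F on the log2(RPKM + 0.1) scale, were small. In H3K4me1, 5 of 7 were above 0 with a median of 0.11, against 49.0% of genes tested and a median of -0.0029. In H3K4me2, 8 of 8 were above 0 with a median of 0.14, and so were 75% of genes tested, with a median of 0.075. In H3K4me3, 3 of 8 were above 0 with a median of -0.02, against 57.8% of genes tested and a median of 0.01. Without the filter on RPKM, 6, 8, and 3 of 9 were above 0 in H3K4me1, H3K4me2, and H3K4me3. Of all 23043 genes 65.1%, 60.8%, and 49.1% then were, with medians of 0.056, 0.037, and -0.0019. Counting separation rather than p, the FC/FC libraries all lay above the F/F libraries for 4 of the 7 genes tested in H3K4me1 (11.8% of genes tested), H2afz, H2afj, H3f3a, and Cenpa, and below them for none (18.7%). H2afv, which was not tested, was above as well. In H3K4me2 they lay above for 3 of 8, H2afz, H2afj, and Cenpa (27.2%), and below for none (8.43%). In H3K4me3 they lay above for none (3.41%) and below for 1 of 8, Cenpa (3.87%).

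**Figure D3:**
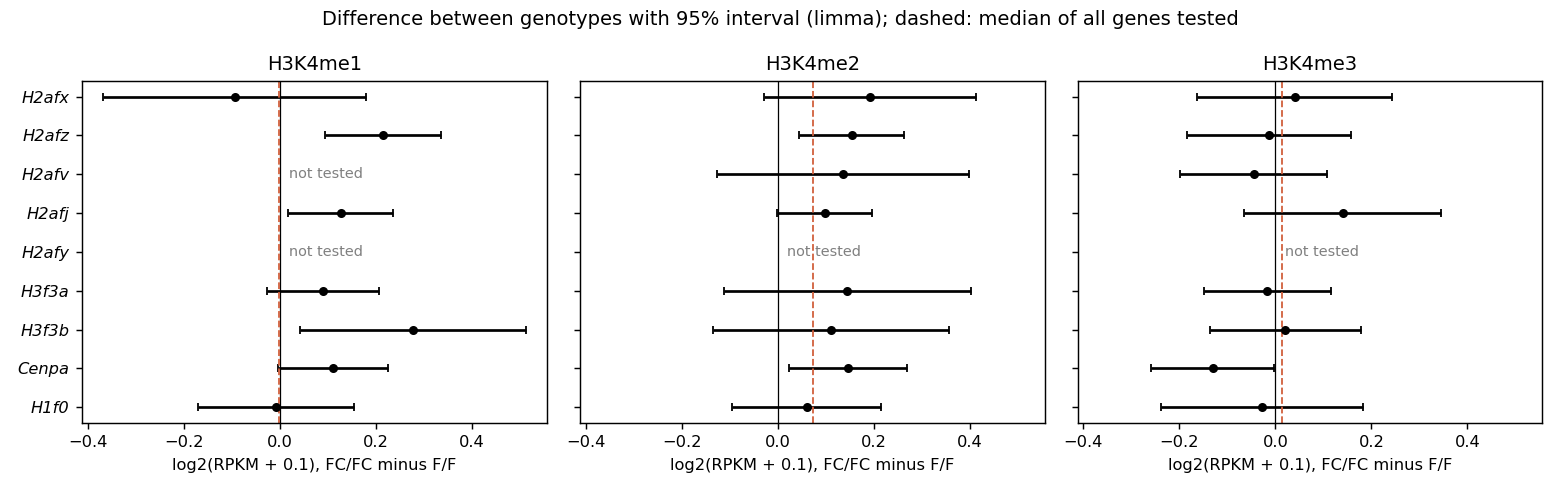
Difference between FC/FC and F/F cells on the log2(RPKM + 0.1) scale (x axis) for each gene and mark, with the 95% interval from limma. The dashed line is the median of all genes tested, 0.075 for H3K4me2, and the intervals that leave out 0 belong to H2afz, H2afj, and H3f3b in H3K4me1, H2afz and Cenpa in H3K4me2, and Cenpa in H3K4me3.

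Of the H2A variants, H2afz (chr3:137864487-137866922, plus strand) came nearest to the threshold. Its H3K4me1 was 1.48, 1.395, and 1.53 RPKM in F/F and 1.69, 1.71, and 1.75 RPKM in FC/FC libraries. The groups did not overlap, and the difference was 0.21 with a standard error of 0.05 (limma, adjusted p = 0.082, 0.059 to 0.24 over the alternatives). Its H3K4me2 was 10.7, 11.1, and 10.3 RPKM in F/F and 11.9, 11.54, and 12.3 RPKM in FC/FC libraries, again without overlap (0.15, standard error 0.05, limma adjusted p = 0.10). H3K4me3 was 17.5, 15.6, and 16.6 RPKM against 17.0, 15.0, and 17.3 RPKM, with overlap (-0.01, 95% interval -0.18 to 0.16). H2afv (chr11:6427226-6444443, minus strand), the other H2A.Z gene, had 0.590, 0.627, and 0.574 RPKM of H3K4me1 in F/F and 0.769, 0.691, and 0.716 RPKM in FC/FC libraries. These groups did not overlap, and without the filter on RPKM the difference was 0.24 (limma, adjusted p = 0.13). The ratio of H2afv to H2afz within a library, as a difference of log2(RPKM + 0.1), was -1.17 ± 0.12 in F/F against -1.14 ± 0.08 in FC/FC cells for H3K4me1. It was -2.32 ± 0.04 and -2.34 ± 0.23 for H3K4me2 and -2.80 ± 0.15 and -2.83 ± 0.19 for H3K4me3. Exact two-sided permutation tests of 3 against 3 gave p = 0.6, 1.0, and 0.9. The smallest p they allow is 0.1, so no ratio could pass 0.05 and stability is not shown.

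H2afx (chr9:44334715-44336073, plus strand), the source of γH2AX, had 1.08, 1.10, and 0.930 RPKM of H3K4me1 in F/F and 1.14, 0.776, and 1.00 RPKM in FC/FC libraries, with overlap (-0.09, 95% interval -0.37 to 0.18). Its H3K4me2 was 11.8, 10.1, and 11.7 RPKM in F/F and 14.4, 12.4, and 11.7 RPKM in FC/FC libraries. These overlap, and the difference of 0.19 (limma, adjusted p = 0.21) was 0.11 without NGS-6282 and 0.12 without NGS-6286. Its H3K4me3 was 28.9, 25.8, and 27.8 RPKM against 28.1, 25.4, and 31.6 RPKM, also with overlap (0.04, 95% interval -0.16 to 0.24). The H3K4me3 peak over its start was 3812, 3776, and 4060 bp wide in F/F and 3055, 3764, and 3489 bp in FC/FC libraries. It was the only start-site peak whose width did not overlap between genotypes, narrower in FC/FC cells at 1 of 9 genes for H3K4me3 (3.13% of genes with such a peak) and wider at none (1.2%). The narrowest F/F and the widest FC/FC peak were 12 bp apart. For H3K4me2, none of 8 widths separated in either direction (10.2% of genes wider, 0.993% narrower). H2afj (chr6:136808248-136810074, plus strand), an H2A variant of mammals, had 2.69, 2.79, and 2.64 RPKM of H3K4me1 in F/F and 2.93, 3.04, and 2.92 RPKM in FC/FC libraries. That is a difference of 0.13 without overlap (standard error 0.05, limma adjusted p = 0.16).

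For the H3.3 genes, the difference of H3f3b in H3K4me1 varied in size with single libraries. It had 1.13, 1.29, and 1.56 RPKM in F/F and 1.499, 1.65, and 1.71 RPKM in FC/FC libraries. The groups overlapped, and the difference was 0.28 with a standard error of 0.10 (limma, adjusted p = 0.15). Without NGS-6277, the lowest F/F library, it was 0.18, below that of H2afz (0.22), and without NGS-6293, the highest, it was 0.39. H3f3a had 1.62, 1.60, and 1.65 RPKM in F/F and 1.81, 1.71, and 1.68 RPKM in FC/FC libraries, which did not overlap (0.09, limma adjusted p = 0.31). For H3K4me3 both genes were level, 7.86, 7.47, and 7.53 RPKM against 7.87, 7.55, and 7.18 RPKM for H3f3a (95% interval of the difference -0.15 to 0.12) and 25.5, 22.9, and 25.8 RPKM against 25.2, 23.8, and 26.2 RPKM for H3f3b (-0.14 to 0.18). Within a library H3f3b carried more H3K4me3 per length than H3f3a, by 1.68 ± 0.08 on the log2(RPKM + 0.1) scale in F/F against 1.72 ± 0.12 in FC/FC cells. The reads over the whole intervals were similar, 2672 to 4391 at H3f3a and 2414 to 4425 at H3f3b, and H3K4me3 peaks covered 31.5% of the longer H3f3a interval and 94.6% of that of H3f3b. For H3K4me2 these ratios were 1.63 ± 0.12 and 1.60 ± 0.05, and for H3K4me1 -0.28 ± 0.20 and -0.09 ± 0.14. Exact two-sided permutation tests with the same limit gave p = 0.7 for H3K4me3, 0.8 for H3K4me2, and 0.2 for H3K4me1, and 1.0 for each of the 6 ratios after Benjamini-Hochberg adjustment.

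Cenpa (chr5:30666886-30674837) was the one gene whose groups were apart in all 3 marks, and not in 1 direction. Its H3K4me1 was 1.46, 1.38, and 1.401 RPKM in F/F and 1.51, 1.56, and 1.52 RPKM in FC/FC libraries (0.11, limma adjusted p = 0.21). Its H3K4me2 was 4.55, 4.48, and 4.59 RPKM in F/F and 5.39, 4.92, and 4.83 RPKM in FC/FC libraries (0.15, limma adjusted p = 0.13). In both marks the FC/FC libraries were the higher ones. Its H3K4me3 was 5.41, 5.66, and 5.95 RPKM in F/F and 5.27, 5.14, and 5.11 RPKM in FC/FC libraries, so that here they were the lower ones (-0.13, standard error 0.06, limma adjusted p = 0.99). Whether the marks differ in the effect was not tested. H1f0 had the smallest difference in H3K4me1 (-0.01, 95% interval -0.17 to 0.15) and overlapped between genotypes in all marks. Its H3K4me2 ran from 25.8 to 29.1 RPKM in F/F and from 27.3 to 30.8 RPKM in FC/FC libraries.

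NGS-6282 decided the H3K4me2 calls. Without it, limma called 3 of 8 genes higher in FC/FC cells, where 21.3% of 9886 genes were called higher. They were H2afv (0.26, adjusted p = 0.018), H3f3a (0.27, adjusted p = 0.019), and H3f3b (0.23, adjusted p = 0.021), and with it their limma adjusted p were 0.42, 0.39, and 0.48. H2afv had 2.001, 2.20, and 1.97 RPKM in F/F libraries, 2.41 and 2.58 RPKM in NGS-6290 and NGS-6298, and 1.88 RPKM in NGS-6282. H3f3a had 2.89, 3.00, and 2.59 RPKM in F/F libraries, 3.42 and 3.42 RPKM in NGS-6290 and NGS-6298, and 2.62 RPKM in NGS-6282. H3f3b had 8.48, 9.39, and 8.99 RPKM in F/F libraries, 10.2 and 10.9 RPKM in NGS-6290 and NGS-6298, and 8.17 RPKM in NGS-6282. In all 3 genes NGS-6282 was the lowest FC/FC library and the others were above every F/F library. At H2afx, Cenpa, H1f0, and H2afj the same library was the highest of its group, with 14.4 RPKM at H2afx against 12.4 and 11.7 RPKM. Without it the differences were 0.08 for H2afj, 0.10 for Cenpa, 0.0026 for H1f0, and 0.15 for H2afz, none of which passed. The part of the antibody in this was not tested.

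H2afy (chr13:56073622-56135550, minus strand) holds the only regions that had a peak in all libraries of 1 genotype and in none of the other. Merging the peaks of a mark across libraries, within 5 kb of a gene, gave 24 regions for H3K4me1, 20 for H3K4me2, and 12 for H3K4me3 near the 9 genes. For H3K4me2, 1 was found in F/F cells only (1.87% of such regions near any gene) and none in FC/FC cells only (0.0785%). For H3K4me3, likewise 1 (0.432%) and none (0.0556%). For H3K4me1, none in either direction (0.764% and 0.453%). Both regions lie in intron 2 of H2afy (chr13:56104996-56128276), and no start site of another gene is there. They fall within a merged H3K4me1 domain of 9024 bp (chr13:56109730-56118753), in which all 6 libraries had peaks. Its full extent is the peak of 1 F/F library, NGS-6285. The H3K4me2 region, chr13:56110488-56111614, lies 23936 to 25062 bp downstream of the start, and its F/F peaks had scores of 181, 73.0, and 179. The H3K4me3 region, chr13:56115724-56116601, lies 18949 to 19826 bp downstream, with scores of 106, 110, and 60.2 in F/F libraries. The score grows with the negative log10 of the p-value from peak calling, and its minimum is 50, so these were weak peaks.

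The strongest H3K4me2 peak of the same intron, between 17478 and 20664 bp downstream, was there in every library. Its score was 2954, 1971, and 2862 in F/F and 1437, 1804, and 1643 in FC/FC libraries, all lower in FC/FC cells. How often scores separate like this over all H3K4me2 peaks was not counted. The FC/FC libraries of this mark held 56112 to 58585 peaks in the whole genome, each fewer than any F/F library (62100 to 70437). The next peak, between 21231 and 23319 bp, had scores of 876, 306, and 906 against 391, 362, and 339, which overlap. The highest H3K4me1 score in the domain was 1201, 1248, and 1926 in F/F and 675, 658, and 1221 in FC/FC libraries, also with overlap. Scores rise with depth, which the values used here do not give. The reads counted over transcripts were 36376215 to 48504887 in F/F and 31514831 to 49990775 in FC/FC libraries of H3K4me2. NGS-6290, with the largest such total, had 1804 at the strongest peak. The part of depth in the scores was not tested. Over the whole of H2afy the RPKM of H3K4me2 was 0.962, 0.850, and 0.886 in F/F and 0.901, 0.816, and 0.764 in FC/FC libraries, which overlap. With peaks of a score of at least 100, neither region kept a peak in all 3 F/F libraries. F/F peaks with scores of 181 and 179 were left at the H3K4me2 region, and of 106 and 110 at the H3K4me3 region. No FC/FC library had a peak at either region. With an equal number of the best-scoring peaks from each library, neither region had a peak in all 3 F/F libraries either.

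Over all regions near the 9 genes, those in H2afy included, a peak was present in all 6 libraries at 12 of 24 H3K4me1, 16 of 20 H3K4me2, and 11 of 12 H3K4me3 regions. For H3K4me1, 8 regions had a peak in more FC/FC than F/F libraries and 3 in more F/F than FC/FC libraries, 2 of these in H2afy. None of these counts was made over all regions near any gene, so they do not set the 9 genes apart. NGS-6285, an F/F library, had no peak at 9 of the 24 regions, against 3 to 5 in the other libraries, and it holds the fewest H3K4me1 peaks overall (81444, against 89026 to 120661). The part of this library in the count was not tested.

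Of 36 genes for histone chaperones and exchange complexes, limma tested 16 in H3K4me1, 30 in H3K4me2, and 32 in H3K4me3, and called none, with 2, 5, and 1 at an unadjusted p under 0.05 and 0 by limma-voom. Their median differences were 0.08, 0.08, and -0.02 on the log2(RPKM + 0.1) scale, and 14, 25, and 13 were above 0. Of all genes tested 49.0%, 75%, and 57.8% were above 0, and 25%, 29%, and 3.73% had an unadjusted p under 0.05. In the list, the smallest p belonged to Ssrp1, a subunit of the FACT chaperone. It had 6.49 ± 0.16 RPKM of H3K4me2 in F/F against 7.38 ± 0.12 in FC/FC cells (limma adjusted p = 0.069). Of 24 genes for kinases, readers, and phosphatases of phosphorylated H2A.X, 5, 10, and 12 were tested and limma called none, with 1, 1, and 0 at an unadjusted p under 0.05. Limma-voom called 1 in H3K4me1 and 0 in the other marks. Ppp4c, the catalytic subunit of a phosphatase that removes the phosphate, had 1.36 ± 0.05 RPKM of H3K4me1 in F/F against 1.69 ± 0.10 in FC/FC cells (limma adjusted p = 0.069). Of 16 other variant genes, 7, 7, and 6 were tested and limma called none, with 3, 3, and 1 at an unadjusted p under 0.05 and 0 by limma-voom. Their medians were -0.13, 0.08, and 0.20. Hist3h2ba had the smallest p among them in each mark, with 1.77 ± 0.22 RPKM of H3K4me3 in F/F against 2.28 ± 0.25 in FC/FC cells (limma adjusted p = 0.95).

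Genes with symbols of the replication-dependent core histone families, listed for contrast, had differences mostly above 0. The list was taken by symbol, so it shares genes with the other variants above, Hist3h2a and Hist3h2ba among them. Of 61 genes, 52, 61, and 60 were tested in H3K4me1, H3K4me2, and H3K4me3, and 48, 61, and 59 had a difference above 0, with medians of 0.21, 0.17, and 0.19. Of all genes tested 49.0%, 75%, and 57.8% were above 0, and without the filter on RPKM 65.1%, 60.8%, and 49.1% were. At an unadjusted p under 0.05 there were 27, 41, and 18 (25%, 29%, and 3.73% of all genes tested), and limma-voom called 1, 1, and 0. By limma Hist1h4i alone passed, a gene of histone H4, with 12.4 ± 0.77 RPKM of H3K4me2 in F/F against 15.6 ± 0.76 in FC/FC cells (0.32, limma adjusted p = 0.048). Leaving out any 1 H3K4me2 library but NGS-6282, limma called 0 genes higher in that mark. Many of these genes are near-identical copies, so reads may be shared among them. Over the replacement variants the medians were 0.11, 0.14, and -0.02. The difference between the lists was not tested.

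For each of the 9 genes, the gene with the nearest pattern was found among 23034 others, by the Euclidean distance over 6 group means of log2(RPKM + 0.1). The nearest to H2afy was Snx27 (distance 0.11), to Cenpa Fam109a (0.14), to H2afv Scoc (0.16), to H2afj Gapdh (0.17), and to H2afx Zfp36l2 (0.18). H2afz was nearest to C030034I22Rik (0.21), H3f3b to Rpl15 (0.28), H1f0 to Hist4h4 (0.33), and H3f3a to Clk1 (0.35). H2afy had 164 genes within a distance of 0.5, Cenpa 149, and H2afv 125. H1f0 had 2, H2afx 4, H3f3a 6, and H3f3b 10. These numbers were not counted for genes outside the 9, so they do not set the 9 genes apart. H1f0 and Hist4h4 both had H3K4me2 above H3K4me3, 27.9 and 20.6 RPKM in H1f0 and 26.7 and 19.6 RPKM in Hist4h4, as means over 6 libraries.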

How the data were processed

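H3K4me1, H3K4me2, and H3K4me3 were measured by ChIP-seq in 18 libraries, and the groups were taken from the sample labels. The submitters' processing notes name CASAVA 1.4, BWA 0.7.10, and MACS 1.4.2. The authors aligned reads to mm10, lengthened them to 200 bp, and deposited RPKM for each RefSeq transcript plus 500 bp on either side. The authors also deposited the MACS peaks of each library with a score, a multiple of the negative log10 of the p-value. The control was an H3 library of the same genotype. Whether blacklisted peaks had been removed from the lists is not given in the sources used here.

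RPKM multiplied by length gave whole reads in 100% of values (tolerance 0.01 read). Transcripts under 250 bp (1352 of 28748) were left out and the longest was kept per gene. For each mark, genes that exceeded 1 RPKM in 3 or more of its 6 libraries entered limma 3.58.1 (R 4.3.3) as log2(RPKM + 0.1), with a mean-variance trend and Benjamini-Hochberg adjustment over all genes of the mark (threshold 0.05). A fold change on this scale understates that of low genes. The limma script was tested on simulated data. Ratios were compared by exact permutation of 3 against 3 libraries. Peaks of a mark were merged where they overlapped by at least 1 bp. Exons came from the RefSeq annotation of GRCm38. Python 3.11.15 with numpy 2.4.6, pandas 2.3.3, and matplotlib 3.10.9 was used.

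The 9 genes and the gene lists were chosen with earlier results of these data known. Genes named were the 9, Kmt2d, neighbours that overlap a member or start within 5 kb of it (1 is not reported here), the gene with the smallest p per list, mark, and direction (of which some are given), and the gene nearest in pattern to each. Unk and Sox2 are named as facts of a peak and of the markers, and the motifs were chosen with the promoters in view. Alternatives were pseudocounts of 0.01 and 1, no filter, the shortest transcript, quantile normalization, centring on library medians, no trend, a single fit of 18 libraries, limma-voom, other peak sets, and leaving out each library.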

Additional observations from a re-analysis of the deposited data

How the results depend on the processing

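No paired analysis was possible because the labels give no replicate number or culture that an F/F and an FC/FC library share, and order alone pairs no libraries. Across the alternatives other than leaving out a library, no gene of the 9 passed in any mark, and 204 differences kept their direction and their side of the threshold. The 3 exceptions came with quantile normalization, where H1f0 was 0.017 in H3K4me1 and -0.053 in H3K4me2 and H2afj was -0.0024 in H3K4me2. With a pseudocount of 1 the difference of the H2afv to H2afz ratio in H3K4me1 turned to -0.028.

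Leaving out each library gave 0 to 3 passing genes in H3K4me2, the 3 without NGS-6282, and 0 in the other marks. Of the single differences 14 turned direction. They ranged from -0.080 to 0.038 for H1f0 and -0.21 to 0.044 for H2afx in H3K4me1. In H3K4me3 they ranged from -0.090 to 0.056 for H1f0, -0.041 to 0.12 for H2afx, -0.053 to 0.051 for H2afz, -0.049 to 0.017 for H3f3a, and -0.033 to 0.056 for H3f3b. The H2afv to H2afz ratio ranged from -0.021 to 0.094 in H3K4me1, -0.086 to 0.11 in H3K4me2, and -0.14 to 0.047 in H3K4me3, and the H3f3b to H3f3a ratio from -0.089 to 0.029 in H3K4me2 and -0.029 to 0.076 in H3K4me3.

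Regions in 1 genotype only were counted where all 3 of its libraries and none of the other had a peak. With peaks of a score of at least 100, they numbered 0 in H3K4me2 and 0 in H3K4me3. With an equal number of the best-scoring peaks from each library they also numbered 0 and 0, and 1 in H3K4me1, an upstream region of H2afv with a peak in FC/FC cells only. The low peaks were absent by construction there. The number of genes called over all genes in H3K4me2 moved from 214 to between 0 and 2954 when a library was left out, and between 347 and 488 with quantile normalization, centring, a single fit, limma-voom, or no filter. For H3K4me1 it moved from 0 to between 86 and 708 with quantile normalization, centring, a single fit, or limma-voom, and for H3K4me3 to 22 with a single fit. Low read counts limit the short genes in H3K4me1, with 59 reads at the least.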
